A study of Homo sapiens with 12 samples.

Results

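The 37 genes described here are established targets of the transcription factor p53, out of 38716 gene symbols in the deposited tables. They were listed by name from textbook knowledge of the p53 response, with earlier results of these data known. CDKN1A and the BCL2 family are p53 targets too and were not counted among them. Their mRNA (RNA-seq) and their ribosome footprints (Ribo-seq, which reads the mRNA stretches covered by ribosomes) were measured in IMR90, a line of normal human lung fibroblasts, while dividing (Pro) and in replicative senescence (Sen). Senescent cells had been passaged in MEM with non-essential amino acids and FBS until they stopped dividing, and no agent was added to induce the state. Each state had 3 independently grown cultures, and each lysate gave 1 library of either kind, which makes 12 libraries. IMR90 cells of 2 isolates were used, and since no label assigns a sample to an isolate, isolate and state cannot be told apart.

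p53 is held at a low level in unstressed cells by the ubiquitin ligase MDM2, is stabilised by DNA damage and telomere erosion, and then activates genes that halt the cell cycle, repair DNA or start apoptosis. It also induces its own inhibitors, so that its activity is limited by feedback. In fibroblasts that reach the end of their replicative lifespan, arrest depends on p53 and on its target CDKN1A, which encodes the cyclin-dependent kinase inhibitor p21.

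The p53 consensus used here has 2 blocks of 10 bases that each carry a C at position 4 and a G at position 7. The windows from 250 bases before to 50 bases after RefSeq gene starts (GRCh38.p14) were searched for 2 such blocks side by side. Up to 3 departures from the p53 consensus were allowed at the other positions. That consensus reads the same on both strands, no other motif was searched, and the limit of 3 was chosen with the numbers of matches in view. A match was found for 7 of the 28 members with a window (25%), against 1.37% of all 27305 symbols in the table. The members were listed as known p53 targets, so this difference is not an independent test. The matches are printed 5′ to 3′ on the gene's strand, with the C, the G and the 2 bases between them in capitals in each block. FAS, AEN and GDF15 were called in both mRNA and footprints, whereas MDM2, DDB2, SESN1 and FDXR were not and are shown because the matches are so few.
FAS (chr10:88991309-88991328, plus strand, starting 122 bases before the gene start): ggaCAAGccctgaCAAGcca
AEN (chr15:88621306-88621325, plus strand, starting 34 bases before): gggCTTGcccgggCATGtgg
GDF15 (chr19:18386186-18386205, plus strand, starting at base 29 of the transcript): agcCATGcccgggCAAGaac
MDM2 (chr12:68808923-68808942, plus strand, starting 94 or 101 bases before its 2 listed starts): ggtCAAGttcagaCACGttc
DDB2 (chr11:47214969-47214988, plus strand, starting 5 bases before and spanning the start): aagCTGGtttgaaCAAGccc
SESN1 (chr6:109009018-109009037, minus strand, starting 49 bases before): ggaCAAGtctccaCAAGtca
FDXR (chr17:74872996-74873015, minus strand, starting 21 bases before): gggCAGGagcgggCTTGccc
These matches are a description of the letters in short windows, and binding was not measured. Of the 7 genes, FAS and GDF15 had mRNA log2 fold changes of 0.97 and 1.04, while those of the other 5 lay between -0.01 (DDB2) and 0.20 (SESN1). The table holds no window for GADD45A, RRM2B, TNFRSF10A, TNFRSF10B, TNFRSF10D, PHLDA3, CMBL, TP53INP1 and TRIM22.

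The libraries set how finely each gene can be read. RNA-seq libraries held 7902427 to 14144455 reads in mRNA regions (5′ UTR, CDS and 3′ UTR), and all 37 members had at least 10 reads in each. Ribosome-protected fragments (RPF), counted in the CDS, numbered 583798 to 1718521 in 4 libraries but only 54421 in Pro 1 and 54708 in Sen 2. The CDS held 34.4%, 84.4% and 88.8% of all assigned RPF reads in Pro and 77.8%, 15.0% and 54.7% in Sen, lower in Sen among the deeper libraries, and the part of this in the footprint results was not tested. In those shallow libraries 25 and 19 members had fewer than 3 reads, and 3 reads, taken as the limit of detection, correspond there to 51.7 and 53 CPM (counts scaled to library size, the usual edgeR unit). Fibroblast markers were present throughout, with 10 of 10 genes above 1 CPM in every RNA-seq library and sums of 30710 to 34876 CPM in Pro and 28220 to 32021 CPM in Sen. Epithelial and endothelial markers summed to at most 2.40 and 1.02 CPM, with SFTPC and CDH5 at 0, and leukocyte markers to 19.2 to 21.3 CPM in Pro and 32.0 to 35.0 CPM in Sen, nearly all of it CD68, with CD3E at 0. The part of these other markers in the results below was not tested. LMNB1, the lamin lost in senescence, had a log2 fold change of -2.85 and the proliferation gene MKI67 of -2.31. CDKN1A mRNA was 494 to 512 CPM in Pro and 1458 to 1584 CPM in Sen, with log2 fold changes of 1.60 ± 0.07 (SE) in mRNA and 1.27 ± 0.18 in RPF.

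As a group, the mRNAs of these 37 p53 targets were more abundant in senescent cells. The list was made with earlier results of these data known, and the part of that choice in the counts below was not tested. Of 37 members tested in mRNA, 28 rose and 3 fell (PLK2, XPC and E2F7) at an adjusted p under 0.15 (a false discovery rate of 15%). The remaining 6 did not pass the threshold. Across all 12840 genes tested, 73.4% passed, 35.9% in the upward direction, so the share of members called (83.8%) was near the background while the share that rose (75.7%) was not. Their median log2 fold change was 0.48, against -0.01 for all genes tested. The 3 Pro and 3 Sen libraries did not overlap for 29 members, 26 of them higher in Sen, where 67.7% of all genes did not overlap and 33.0% were higher. Members together took 0.196% to 0.206% of the mRNA reads in Pro and 0.310% to 0.328% in Sen. In such bulk samples a change in the share of expressing cells and in RNA per cell cannot be told apart. Without TNFRSF10D, the most changed member, these ranges were 0.186% to 0.195% and 0.255% to 0.270%.

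**Figure D1:**
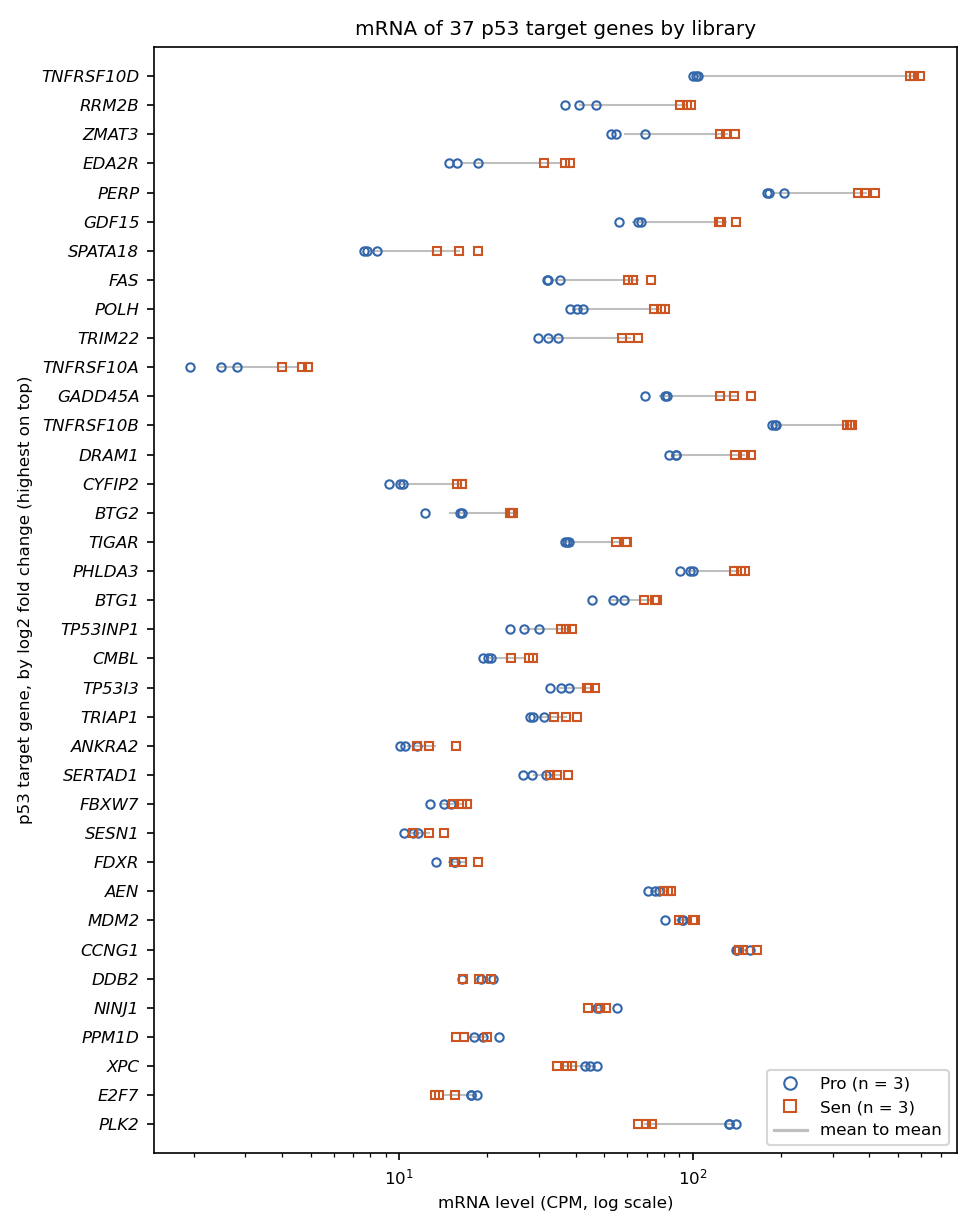
mRNA level of each of the 37 p53 target genes in CPM on a log axis, 1 point per RNA-seq library (3 Pro circles, 3 Sen squares) and a grey line between the state means, ordered by log2 fold change. TNFRSF10D stands furthest apart (100.02 to 105 against 552 to 598 CPM), and PLK2 at the bottom is the largest decrease.

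Footprints moved in the same direction for most members. Of the 32 members with enough RPF reads to test, 19 rose, 2 fell (PLK2 and XPC) and 11 did not pass, where 54.3% of 7562 genes passed, 27.7% upward and 26.6% downward. DESeq2 called 8 of the 32, 7 higher (GADD45A, TNFRSF10A, TNFRSF10B, TNFRSF10D, PERP, PHLDA3 and GDF15) and 1 lower (PLK2). The all-gene shares above are those of edgeR, and the share that DESeq2 called is not given here. The median RPF log2 fold change of the 32 in edgeR was 0.65, against 0.01 for all genes tested. BTG2, E2F7, FBXW7, SPATA18 and ANKRA2 had too few footprints for a test. The sign of the mRNA and RPF changes was shared by 30 of 32 members, with NINJ1 and SESN1 as the exceptions. All 21 members called in RPF were called in mRNA with the same sign. Matching shares over all genes are not given here, and whether this agreement is particular to the members was not tested. CYFIP2, MDM2, TIGAR, TP53INP1 and TRIAP1 were called in mRNA and not in RPF. Groups of RPF libraries did not overlap for 13 of the 32, where 32.7% of all genes tested did not overlap. For members near the detection limit this separation can turn on 1 or 2 reads in Pro 1 or Sen 2.

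**Figure D2:**
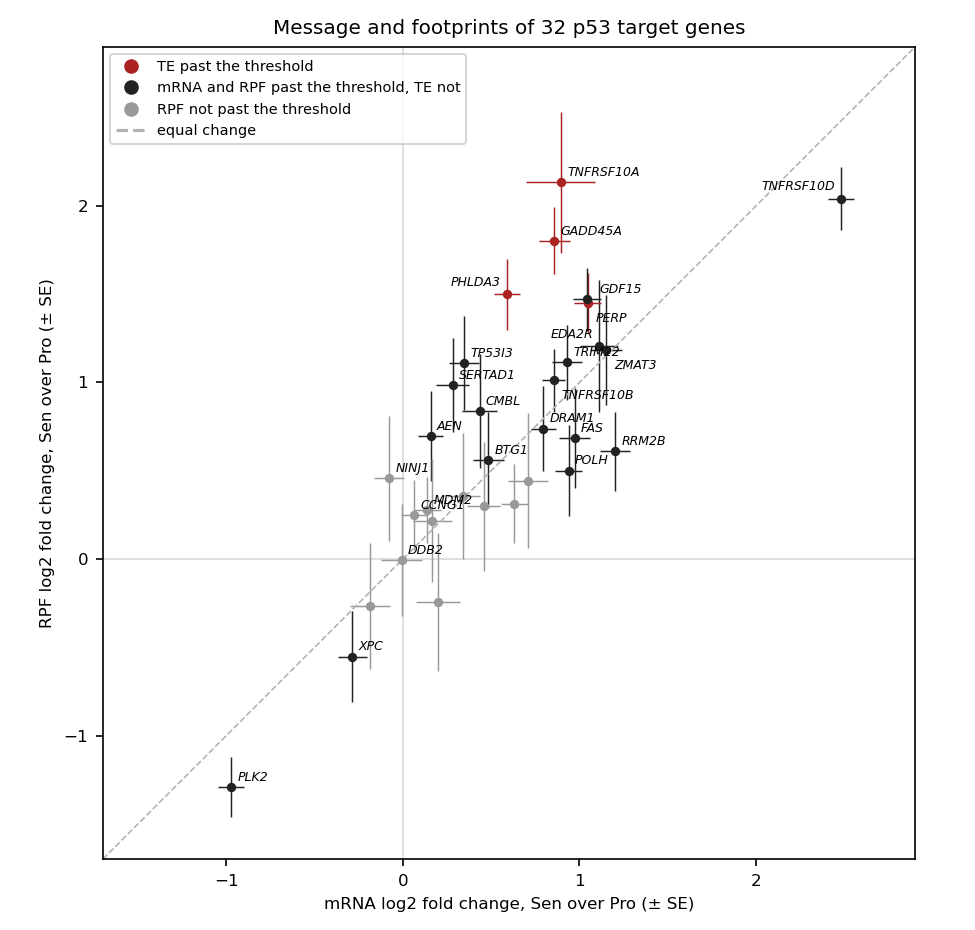
RPF against mRNA log2 fold change (Sen over Pro) of the 32 members tested in both, with bars of 1 SE and a dashed line of equal change. Most points lie at the upper right along the line, with GADD45A, PHLDA3 and TNFRSF10A above it and PLK2 and XPC at the lower left.

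All 5 members grouped here as death receptors were higher in senescent cells, in mRNA and in RPF. Of all genes tested, 35.9% and 27.7% rose. The RPF calls of FAS and EDA2R, however, were lost under DESeq2 and when 1 lysate was left out. These are cell surface receptors of the TNF receptor family that bind FAS ligand (FAS), TRAIL (TNFRSF10A, TNFRSF10B and TNFRSF10D) or ectodysplasin A2 (EDA2R). TNFRSF10D is a decoy receptor that binds TRAIL but has a truncated death domain. Its mRNA was at 100.02, 105 and 103 CPM in Pro and at 568, 598 and 552 CPM in Sen. Its footprints were at 68.9, 75.2 and 71.2 CPM in Pro and at 308, 229 and 300.2 CPM in Sen. The states were separated by several times their spread in either layer, and TNFRSF10D showed the largest mRNA change of any member, 5.59-fold (log2 fold change 2.48 ± 0.07, edgeR adjusted p = 1.32e-16), with a 4.12-fold change in RPF (2.04 ± 0.18, adjusted p = 1.35e-14).

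TNFRSF10B, the TRAIL receptor DR5 that does carry a death domain, was at 191, 187 and 192 CPM of mRNA in Pro and at 345, 349.8 and 337 CPM in Sen. Its RPF levels of 207, 127 and 99.6 CPM in Pro and 220.0, 265 and 242 CPM in Sen were close between the shallow Pro 1 and Sen 1. The mRNA log2 fold change was 0.85 ± 0.07 and that of RPF 1.01 ± 0.18. FAS, the receptor whose clustering recruits caspase 8, was at 31.9, 32.1 and 35.5 CPM of mRNA in Pro and at 62.6, 72.0 and 60.5 CPM in Sen. FAS footprints were at 17.2, 25.1 and 30.8 CPM in Pro and at 47.5, 88.3 and 37 CPM in Sen, where the highest value came from 5 reads in Sen 2. Its log2 fold changes were 0.97 ± 0.09 and 0.68 ± 0.28, and the RPF call (adjusted p = 0.0462) was lost without Pro 2 (adjusted p = 0.169) or Sen 1 (0.343).

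TNFRSF10A, the TRAIL receptor DR4, was a low mRNA, at 1.95, 2.48 and 2.81 CPM in Pro and 4.01, 4.89 and 4.67 CPM in Sen. It had 1, 6 and 9 footprint reads in Pro and 47, 2 and 13 in Sen, which correspond to 17.2, 8.85 and 5.34 CPM and to 31.4, 35.3 and 25.3 CPM. The log2 fold changes were 0.89 ± 0.20 in mRNA and 2.13 ± 0.40 in RPF. EDA2R mRNA rose 2.16-fold (1.11 ± 0.11) and its RPF 2.31-fold (1.21 ± 0.37), although Sen 2 held 0 EDA2R footprints and the RPF call was lost without Sen 1 (0.89, adjusted p = 0.319). TNFRSF10A, TNFRSF10B and TNFRSF10D are close relatives, and fractional CDS counts show that reads were divided among placements for all of them, so a share of these reads may belong to a paralog. FAS shares exon bases with ACTA2 and a long non-coding RNA on the opposite strand, and whether counting used strand is not given in the sources used here.

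Members that act on the cell cycle moved in both directions. Of their mRNAs 5 of 7 rose and 2 fell, and of the 4 with an RPF test 3 rose and 1 fell. Of all genes tested, 35.9% rose and 37.5% fell in mRNA, and 27.7% and 26.6% in RPF. GADD45A, which binds PCNA and slows entry into mitosis after DNA damage, was at 69.1, 80.8 and 82.0 CPM of mRNA in Pro and at 124, 139 and 158 CPM in Sen. Its footprints were at 34.4, 70.8 and 65.8 CPM in Pro and at 193, 282 and 283 CPM in Sen. Each Sen library was more than 2 times above each Pro library in RPF, and the RPF change of 3.49-fold (1.8 ± 0.19, edgeR adjusted p = 1.35e-11) exceeded the mRNA change of 1.81-fold (0.86 ± 0.09).

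PLK2, a polo-like kinase of centriole duplication and early S phase, went the other way. Its mRNA was at 133, 141 and 133 CPM in Pro and at 65.1, 69.6 and 72.7 CPM in Sen. Its RPF levels were 224, 245 and 259 CPM in Pro and 106, 70.6 and 101 CPM in Sen. It had the lowest log2 fold change among the 37 members tested in mRNA and the 32 tested in RPF, with log2 fold changes of -0.97 ± 0.07 and -1.29 ± 0.17 and no overlap between states.

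BTG1, an antiproliferative adaptor of the CCR4-NOT deadenylase, was at 58.4, 45.5 and 53.6 CPM of mRNA in Pro and at 74.7, 75.8 and 68.5 CPM in Sen. Its RPF levels were 17.2, 31.0 and 31.4 CPM in Pro and 48.1, 53 and 39.0 CPM in Sen, and the RPF call (0.56 ± 0.27, adjusted p = 0.0931) was lost without Pro 2, Pro 3 or Sen 1 (adjusted p = 0.195, 0.277 and 0.549). Its relative BTG2 rose 1.62-fold in mRNA. SERTAD1, a regulator of CDK4, rose in both layers (0.28 ± 0.09 in mRNA and 0.98 ± 0.27 in RPF). E2F7, a repressor of E2F target genes, fell in mRNA from a mean of 17.9 to 14.2 CPM (-0.34 ± 0.11), and its footprints, too few for a test, numbered 0, 14 and 33 reads in Pro and 8, 0 and 1 in Sen. FBXW7, the ubiquitin ligase subunit that marks cyclin E for destruction, had a log2 fold change of 0.20 ± 0.11 (adjusted p = 0.113), a call lost without Pro 1, Pro 2, Sen 1 or Sen 3 (adjusted p of 0.17 to 0.265).

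**Figure D3:**
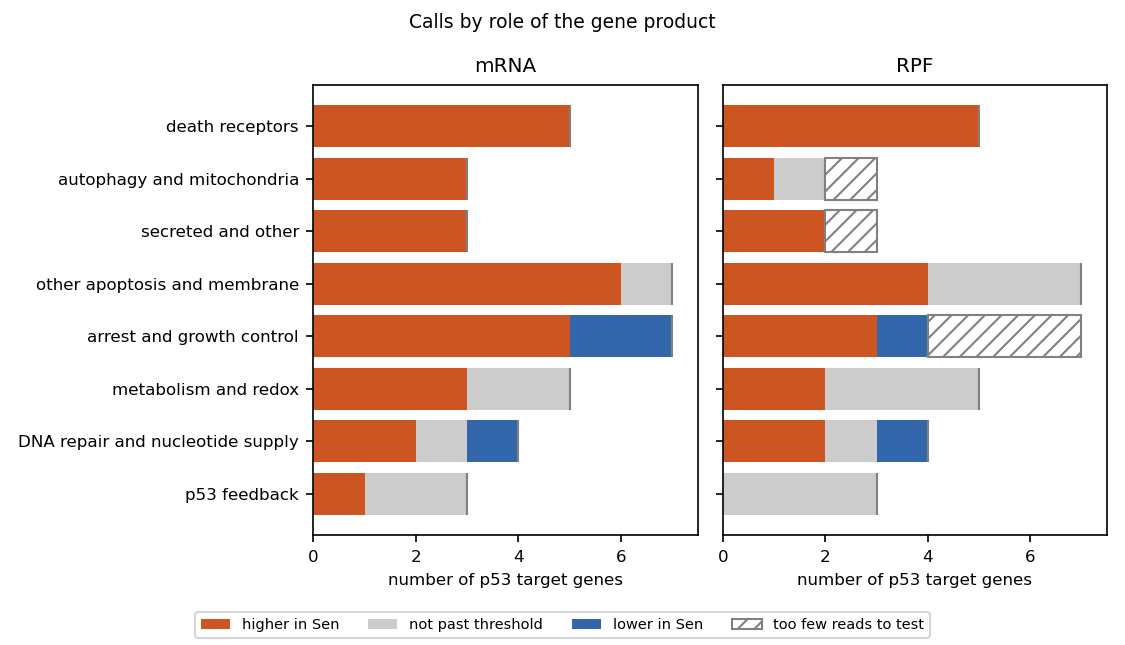
Number of p53 target genes in each role class that were higher, lower or not past the threshold (adjusted p under 0.15) in mRNA (left) and RPF (right), with hatching for members with too few footprints to test. The class named death receptors, which includes the decoy TNFRSF10D, is called higher throughout. The feedback class has 1 of 3 called in mRNA and 0 of 3 in RPF.

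The feedback genes, which limit p53 itself, had the lowest median mRNA change of any class (0.06). MDM2, the ligase that degrades p53, was at 80.8, 92.7 and 92.4 CPM of mRNA in Pro and at 90.3, 102 and 100.5 CPM in Sen, so that the states overlapped. Its mRNA log2 fold change of 0.14 ± 0.08 (edgeR adjusted p = 0.123) passed the threshold but did not do so without Pro 1, Sen 2 or Sen 3 (adjusted p = 0.382, 0.253 and 0.209). Its RPF change was 0.28 ± 0.19 (adjusted p = 0.229). PPM1D, the phosphatase WIP1 that switches off damage signalling, had log2 fold changes of -0.19 ± 0.11 in mRNA and -0.27 ± 0.36 in RPF, and neither passed. CCNG1, cyclin G1, had 0.06 ± 0.08 and 0.25 ± 0.20, also without passing. Of the 3 feedback genes, 0 were called in RPF by edgeR or by DESeq2, and 0 had an unadjusted p under 0.05 in either tool.

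Genes of DNA repair and nucleotide supply were divided. RRM2B, the p53-inducible subunit of ribonucleotide reductase, rose 2.30-fold in mRNA (1.20 ± 0.09) and 1.53-fold in RPF (0.61 ± 0.22), and its RPF groups overlapped. That RPF call was lost without Pro 3 (0.46, adjusted p = 0.298). POLH, the polymerase eta of translesion synthesis, was at 38.3, 42.5 and 40.3 CPM of mRNA in Pro and at 78.1, 74.1 and 80.6 CPM in Sen. POLH footprints were at 34.4, 36.9 and 35.0 CPM in Pro and at 50.1, 53 and 50.7 CPM in Sen. The states were clearly apart in mRNA (0.94 ± 0.08), but the RPF call (0.50 ± 0.26, adjusted p = 0.112) was lost when any of Pro 2, Pro 3, Sen 1 and Sen 3 was left out (adjusted p of 0.208 to 0.397).

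XPC, the damage sensor of nucleotide excision repair, fell. Its mRNA was at 47.3, 43.2 and 44.8 CPM in Pro and at 37.3, 34.7 and 38.8 CPM in Sen. Its RPF levels were 68.9, 63.4 and 48.6 CPM in Pro and 41.5, 17.7 and 29.2 CPM in Sen. The log2 fold changes were -0.29 ± 0.08 and -0.55 ± 0.26, the second being lost without Pro 2 or Sen 3 (adjusted p = 0.268 and 0.264). XPC shares 24.6% of its exon bases with an antisense RNA. DDB2, its partner in sensing ultraviolet damage, was at 18.8 ± 2.26 CPM (SD, n = 3) in Pro and 18.6 ± 2.09 CPM in Sen, and was not called in mRNA or RPF.

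Among the other genes of apoptosis and the cell membrane 6 of 7 rose in mRNA and 4 of 7 in RPF. The shares of all genes tested that rose were 35.9% and 27.7%. PERP, a desmosomal membrane protein that promotes p53-dependent death, was at 180.1, 182 and 205 CPM of mRNA in Pro and at 366, 418 and 388 CPM in Sen. Its footprints were at 155, 153 and 152 CPM in Pro and at 471, 229 and 396 CPM in Sen, so that Sen values were spread widely but all lay above Pro. The log2 fold changes were 1.05 ± 0.08 and 1.45 ± 0.17. PHLDA3, a PH domain protein that restrains AKT, was at 90.9, 97.7 and 100.3 CPM of mRNA in Pro and at 151, 138 and 146 CPM in Sen. PHLDA3 footprints were at 34.4, 42.8 and 53.4 CPM in Pro and at 126, 177 and 158 CPM in Sen. Its RPF change of 2.83-fold (1.5 ± 0.20) was well above its mRNA change of 1.5-fold (0.59 ± 0.07). PHLDA3 shares 18.4% of its exon bases with a long non-coding RNA of the same strand. TIGAR (18.1%) and TRIM22 (5.1%) share exon bases with a protein-coding gene of the same strand. BTG1 (10.4%) does so with a long non-coding RNA and MDM2 (5.3%) with a pseudogene. The part of these overlaps in the counts was not tested.

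AEN, an apoptosis-enhancing nuclease, differed little in mRNA, with 74.7, 76.6 and 70.4 CPM in Pro and 82.3, 80.2 and 84.7 CPM in Sen. Its RPF levels were 51.7, 59.0 and 29.1 CPM in Pro and 60.8, 70.6 and 70.2 CPM in Sen. The RPF call (0.70 ± 0.26, adjusted p = 0.0243) rested on Pro 3, without which the log2 fold change was 0.14 (adjusted p = 0.794), and the mRNA call (0.16 ± 0.07, adjusted p = 0.0616) was also lost without Pro 3. ZMAT3, an RNA-binding regulator of splicing, rose 2.22-fold in mRNA and 2.27-fold in RPF, with overlapping RPF groups. The RPF log2 fold change of ZMAT3 was 0.76 without Pro 3 and 0.71 without Sen 1, and the call was lost in both cases (adjusted p = 0.175 and 0.302). CYFIP2, a component of the actin-regulating WAVE complex, and TRIAP1, a small mitochondrial inhibitor of apoptosis, rose in mRNA (0.71 ± 0.11 and 0.34 ± 0.09) and were not called in RPF (0.44 ± 0.38 and 0.36 ± 0.36). NINJ1, which mediates plasma membrane rupture, was not called in either layer (-0.08 ± 0.09 and 0.46 ± 0.35).

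The metabolic and redox members changed modestly. TIGAR, a bisphosphatase that lowers glycolytic flux, rose 1.55-fold in mRNA (0.63 ± 0.08) and had an RPF log2 fold change of 0.31 ± 0.22 that did not pass. TP53I3, a quinone oxidoreductase, rose in mRNA by 0.34 ± 0.08 and in RPF by 1.11 ± 0.27, with 0 footprints in Sen 2 and 112 and 34 reads in the other two Sen libraries. CMBL, a hydrolase, rose in both (0.43 ± 0.10 and 0.84 ± 0.32), with overlapping RPF groups and 53, 0 and 23 footprint reads in Sen. Its RPF call was lost under DESeq2 and when replicate number was a block. SESN1, an inhibitor of mTORC1, had 0.20 ± 0.12 in mRNA and -0.24 ± 0.39 in RPF, and FDXR, the mitochondrial ferredoxin reductase, had 0.17 ± 0.11 and 0.22 ± 0.35. None of these values for SESN1 and FDXR passed the threshold in edgeR.

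Genes of autophagy and mitochondrial quality control rose in mRNA in 3 of 3 cases, where 35.9% of all genes tested rose. DRAM1, a lysosomal membrane protein that promotes autophagy, was at 87.6, 88.1 and 83.2 CPM of mRNA in Pro and at 139.6, 158 and 151 CPM in Sen. Its footprints were at 17.2, 44.3 and 39.1 CPM in Pro and at 62.2, 88.3 and 74.1 CPM in Sen. Both layers were separated, with log2 fold changes of 0.80 ± 0.07 and 0.74 ± 0.24. TP53INP1, an autophagy and stress adaptor, rose in mRNA (0.46 ± 0.09) and not detectably in RPF (0.30 ± 0.37). SPATA18, a mitochondrial quality control protein, rose from 7.95 to 16 CPM in mRNA and had at most 10 footprints in a library.

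Of the last group, GDF15, a stress-induced cytokine of the TGF-β superfamily, rose 2.06-fold in mRNA (1.04 ± 0.08) and 2.77-fold in RPF (1.47 ± 0.18). Its RPF groups overlapped only through the shallow libraries, where Pro 1 read 189 CPM from 11 reads and Sen 2 read 141 CPM from 8 reads. TRIM22, an interferon-inducible ubiquitin ligase, rose in both layers (0.93 ± 0.09 and 1.11 ± 0.21). ANKRA2, an ankyrin repeat protein, rose in mRNA by 0.32 ± 0.13, a call lost without Sen 2.

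Translational efficiency (TE), the ratio of RPF to mRNA, asks whether ribosome occupancy changed beyond the message. It was tested as the interaction of library type and state, with the lysate as a block. Of 32 members 4 rose in TE and 0 fell, against 9.65% of 7512 genes called, 5.56% upward and 4.09% downward. The count of members at an unadjusted p under 0.05 was 9 in edgeR and 2 in DESeq2. The share of all genes at that cut is not given here, and the 9.65% is not its background. GADD45A had lysate TE values (log2) of -0.68, -0.18 and -0.31 in Pro and of 0.64, 1.07 and 0.85 in Sen, a TE log2 fold change of 1.04 ± 0.20 (edgeR adjusted p = 0.000311). This was the only TE call among the members that held under every alternative that gave an adjusted p. PHLDA3 had values of -1.08, -1.17 and -0.90 in Pro and of -0.26, 0.43 and 0.12 in Sen, a change of 0.93 ± 0.22 (adjusted p = 0.00702), lost without Pro 2 (adjusted p = 0.185). In both genes each Sen lysate was above each Pro lysate.

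The other TE calls were less firm. TNFRSF10A had a TE change of 1.42 ± 0.47 (adjusted p = 0.0776), but its lysate values overlapped and few reads stood behind them, and the call was lost on leaving out Pro 2, Pro 3, Sen 1 or Sen 3 (adjusted p of 0.264 to 0.719). PERP had a change of 0.48 ± 0.18 (adjusted p = 0.136) that was lost without the same 4 lysates (adjusted p of 0.396 to 0.823). Without both shallow lysates, Pro 1 and Sen 2, 7 of 34 members tested were called, where the share of all genes called is not given here. These were the 4 above, TP53I3 (0.72 ± 0.27) and GDF15 (0.59 ± 0.16) upward, and E2F7 (-1.83 ± 0.50) downward. TNFRSF10D (-0.41 ± 0.20, adjusted p = 0.245) and RRM2B (-0.52 ± 0.24, adjusted p = 0.232) had lysate TE values that were lower in Sen without overlap, and did not pass the threshold. The same held for POLH (-0.44 ± 0.26, adjusted p = 0.371) and PLK2 (-0.29 ± 0.19, adjusted p = 0.418). Lysate TE did not overlap for 6 members in all, 2 of them higher in Sen, where 16.3% of genes did not overlap and 8.33% were higher. By the combination of tests, 17 of 32 members (53.1%, against 41.6% of all genes) changed in mRNA and RPF without a TE call in the same direction, 4 (12.5%, against 7.35%) were called in RPF and TE in the same direction, and the remaining 11 (34.4%) were not called in RPF, where 49.2% of all genes showed neither combination, nor opposite calls in mRNA and TE without one in RPF.

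**Figure D4:**
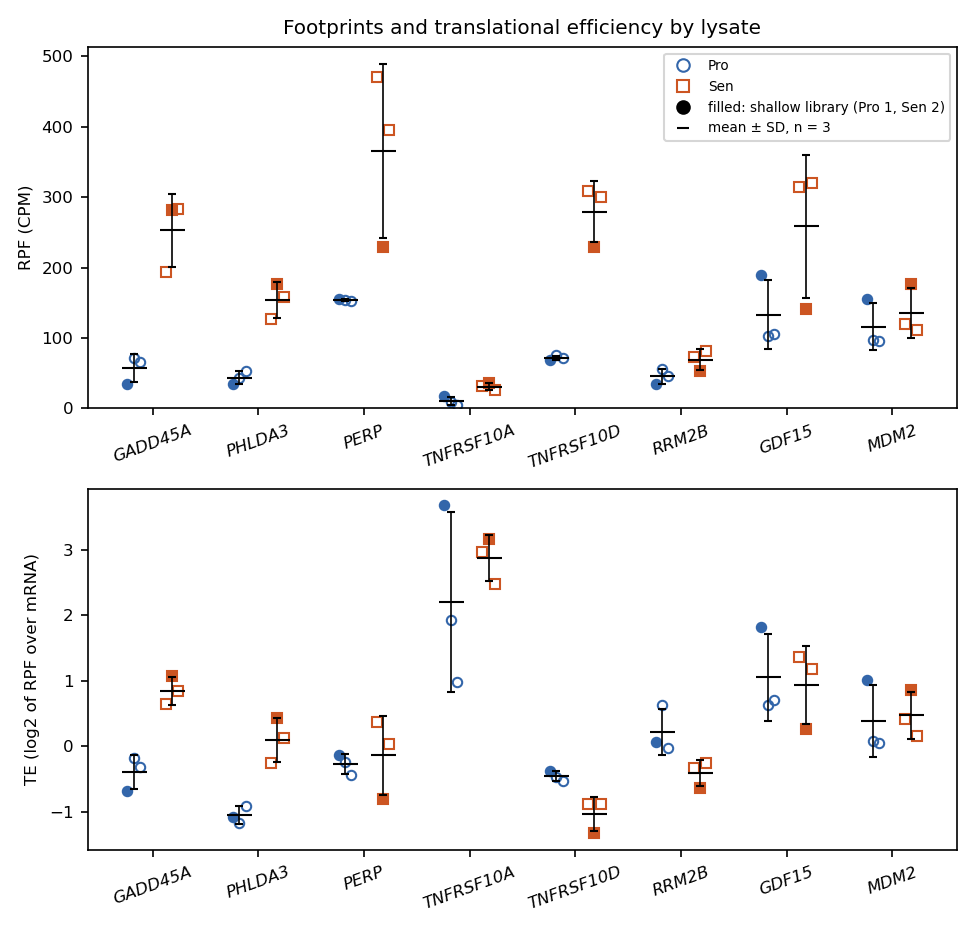
RPF level (top, CPM) and TE (bottom, log2) in each of 6 lysates for 8 members, with filled symbols for the shallow Pro 1 and Sen 2 and bars for the mean ± SD (n = 3). The genes were chosen after their values were seen. GADD45A and PHLDA3 are separated in both panels, while TNFRSF10D is higher in RPF and lower in TE.

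Footprints were also assigned to 5′ UTRs. Over all members, the 5′ UTR held 8.97%, 7.20% and 4.24% of the footprints in 5′ UTR and CDS in Pro and 2.76%, 1.37% and 1.01% in Sen. A lower share in Sen was general: leaving out the 10 genes with the most 5′ UTR reads in each library, which held 28.2% to 98.3% of those reads, the share over all genes was 4.42%, 2.54% and 2.12% in Pro and 1.72%, 1.82% and 0.826% in Sen. With those 10 genes it was 11.6%, 3.77% and 2.82% in Pro and 5.06%, 52.4% and 14.5% in Sen. The members named next were singled out after their values were seen. TNFRSF10B held 66 of 332 footprints (19.9%, Wilson 95% interval 15.9% to 24.5%) in its 5′ UTR in Pro and 35 of 502 (6.97%, 5.06% to 9.54%) in Sen. By library, with 3′ UTR footprints also in the total, its share was 14.8%, 21.0% and 19.6% in Pro and 9.31%, 0% and 0.761% in Sen. The states did not overlap, while 34 of the 35 Sen reads came from Sen 1. BTG1 went from 46 of 120 (38.3%) to 14 of 108 (13%), and its shares by library overlapped because Pro 1 held 0 such reads. The mRNA of BTG1 moved the other way, with 5′ UTR shares of 8.99%, 12.2% and 15.9% in Pro and 19.8%, 16.8% and 19.8% in Sen. In mRNA the 5′ UTR share did not overlap between states for 5 of 37 members, 4 of them lower in Sen, where 9.55% of 11952 genes did not overlap and 5.98% were lower. Footprint shares were compared for genes with at least 1 footprint in each library and at least 10 in the 5′ UTR in total. Of 9 such members, the 5′ UTR share of 2 (TNFRSF10B and GADD45A) did not overlap between states, against 17.5% of 1768 genes. Both were lower in Sen, as were nearly all of those genes (16.5% of the 1768). GADD45A rested on few 5′ UTR reads, 1, 3 and 4 in Pro and 7, 0 and 1 in Sen.

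**Figure D5:**
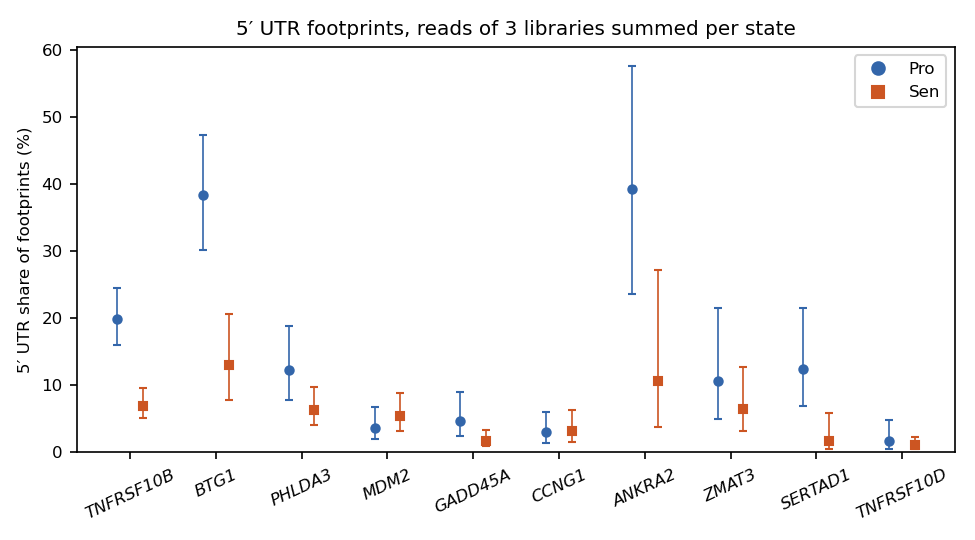
Share of 5′ UTR plus CDS footprints that fell in the 5′ UTR, in percent, for the 10 members with at least 10 such reads, summed over the 3 libraries of each state, with Wilson 95% intervals that cover counting error only. TNFRSF10B and BTG1 have the clearest separation, and MDM2 and CCNG1 differ by less than their intervals.

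Other genes around p53 were read from a pair of lists. Of 25 regulators of p53 tested in mRNA, 2 rose and 20 fell (median log2 fold change -0.54), and of 20 tested in RPF 1 rose and 15 fell. Among all genes tested, 35.9% rose and 37.5% fell in mRNA, and 27.7% and 26.6% in RPF. MDM4, the relative of MDM2 that masks the p53 activation domain, fell by 1.221 ± 0.15 on the log2 scale in mRNA. CDKN2A, whose alternative product ARF blocks MDM2 and whose main product is p16, rose in mRNA by 0.61 ± 0.09. Further p53 targets outside the 37 were more divided, with 15 of 30 higher and 7 lower in mRNA (median 0.16) and 12 of 22 higher and 4 lower in RPF (median 0.53). The alkaline ceramidase gene ACER2 and the decoy receptor TNFRSF10C rose from low levels (2.03 ± 0.21 and 1.97 ± 0.22 in mRNA), and LIF, a cytokine, fell by 1.70 ± 0.08 on the log2 scale.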

How the data were processed

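Groups and replicate numbers came from the sample labels. The deposited tables hold expected counts, which the authors assigned per gene to the 5′ UTR, CDS, 3′ UTR and non-coding classes without scaling to depth. Fractional values show that some reads were divided, whereas plain counts had been assumed when the tests were planned. Values were therefore rounded after summing regions. The submitters' processing notes name cutadapt 1.18, Bowtie 1.0.1, SAMtools 1.8 and DESeq2 1.22.2. Genome build, annotation, strand and multimapping rules of these tables are not given in the sources used here.

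Reads of the UTRs and the CDS were added up for mRNA (RNA-seq), and CDS reads alone gave RPF (Ribo-seq). Levels are CPM with TMM factors, and errors are SD over 3 lysates or SE of a log2 fold change (Sen over Pro). Genes kept by filterByExpr were tested two-sided by quasi-likelihood in edgeR 4.0.16 (R 4.3.3), Benjamini-Hochberg adjusted over all genes tested and called under 0.15. The TE test used 12 libraries, the lysate as a block and the interaction of library type and state. Lysate TE is log2 of RPF over mRNA, scaled to library size, after adding 0.5 reads to each. Wilson 95% intervals and the limit of 3 reads cover counting error only. The tests were tested on simulated data. Values per library are given for members tested in both layers and called in a layer, if groups overlapped in neither or TE was called. MDM2 mRNA and E2F7 footprint reads are given by library outside this rule. Exon overlaps come from the GENCODE annotation lifted to GRCh37.

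Members and gene lists were chosen with earlier results of these data known. Alternatives were RLE factors, library totals, a filter of at least 1 read, DESeq2 1.42.0, an adjusted p under 0.05, the replicate block, leaving out each lysate or both shallow lysates, and CDS reads for mRNA. DESeq2 with its default independent filtering left the adjusted p of all 32 members NA in the TE test, and DESeq2 with no independent filtering was added after this was seen.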

Additional observations from a re-analysis of the deposited data

How the results depend on the processing

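Of the calls reported, 27 of 31 in mRNA, 8 of 21 in RPF and 1 of 4 in TE held under every alternative that gave an adjusted p, and 0 calls changed sign. AEN, ANKRA2, FBXW7 and MDM2 were the mRNA calls lost. Over the edgeR alternatives alone, 12 of the 21 RPF calls held. DESeq2 called 8 members in RPF, with or without independent filtering, 6 of the regulators and 4 of the other targets. Without filtering it called 1 member in TE (GADD45A), 0 of either list, 7 members in mRNA and RPF without a TE call and 1 with it. The cause of these differences was not tested. Shares of all genes called are not given here for any alternative, so these counts have no background beside them.

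Replicate numbers did not pair the samples: deviations of same-numbered Pro and Sen libraries from their group means correlated at -0.07 to 0.09 in mRNA and 0.01 to 0.04 in RPF. A replicate block gave 32 calls in mRNA and 16 in RPF, 10 and 6 of the lists in RPF, and RPF log2 fold changes of 0.0756 for DDB2 and -0.146 for TRIAP1. With no replicate block, TE calls numbered 10 among members (8 upward, 2 downward), 8 among regulators and 5 among other targets.

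Library totals moved the median log2 fold change of all genes by -0.10 in mRNA and -0.15 in RPF, gave member medians of 0.386 and 0.501 and 5 regulators called in TE. An adjusted p under 0.05 left 2 TE calls (also 2 with mRNA and RPF), 1 regulator and 0 other targets. A filter of at least 1 read left 1 other target in TE. Without both shallow lysates the mRNA median was 0.545, with 7 TE calls, of which 7 counted as changes in TE with RPF, and 6 regulators.

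Leaving out 1 lysate at a time gave 30 to 31 calls in mRNA, 16 to 22 in RPF and 1 to 8 in TE, of which 1 to 7 with RPF. Member medians lay between 0.457 and 0.559 in mRNA and between 0.540 and 0.714 in RPF. Calls numbered 8 to 17 for other targets in RPF, 0 to 3 in TE, and 0 to 5 for regulators in TE.

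The sign changes were in members not called. DDB2 mRNA was 0.00604 with RLE factors, 0.00429 under DESeq2, 0.118 with CDS reads and -0.0990 to 0.0909 with 1 lysate left out. CCNG1 mRNA was -0.0344 with library totals, -0.0134 without the shallow lysates and -0.000482 to 0.118 with 1 left out, and NINJ1 mRNA -0.123 to 0.00707. In RPF, DDB2 was 0.0256 and NINJ1 -0.00187 under DESeq2, and with 1 lysate left out DDB2 was -0.104 to 0.0488, PPM1D -0.447 to 0.145 and SESN1 -0.407 to 0.0952. The TE sign of 11 of the 28 members not called turned under at least 1 alternative, so their TE values are given only for the few named. Those few were chosen with these turns known. In Pro 1 and Sen 2, 25 and 19 members had fewer than 3 footprints, which limits RPF and TE there.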
